A study of Mus musculus with 5 samples.

Results

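Thbd, F3, Plat, Plau, Plaur, Serpine2, Serpinf1, Procr and Clec3b, 9 of the 31055 gene rows counted, encode cell-surface and secreted proteins. Most of them, though not Serpinf1, take part in clotting, clot lysis or related proteolysis. The genes were chosen by name with earlier values of these libraries known, so every level and difference given here is a description and carries no test. Single-cell RNA sequencing (scRNAseq) was done on GFP+ cells sorted from hindlimb skeletal muscle of Prx1Cre;mTmG mice on a C57Bl/6 background, aged 10 to 14 weeks. All mice carried both alleles, so that a limb mesenchyme cell in which Prx1-driven Cre had once acted, and its progeny, expressed membrane GFP in place of Tomato. The 5 conditions were uninjured muscle (d0), a non-stabilized tibial fracture at d3 and d5, and polytrauma, in which the fracture was combined with compression of the adjacent muscle for 5 s, also at d3 and d5. Each condition was 1 library from 2 pooled mice, so the spread between mice or libraries could not be measured and the intervals below cover counting error only. The Prx1 label marks a whole lineage and not 1 cell type.

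Clotting starts when tissue factor, the product of F3, meets factor VII, and it ends in thrombin and a fibrin mesh. Thrombomodulin (Thbd) binds thrombin and, with the endothelial protein C receptor (Procr), turns it toward activation of protein C, which slows clotting. Tissue-type (Plat) and urokinase-type (Plau) activators convert plasminogen to plasmin, which dissolves fibrin, and fibrin is laid down and cleared at fracture sites and in damaged muscle. Plaur is the cell-surface receptor that holds urokinase. Serpine2 (protease nexin-1) inhibits thrombin and plasminogen activators, Serpinf1 (pigment epithelium-derived factor) is a serpin that does not inhibit proteases, and Clec3b encodes tetranectin, which binds a kringle of plasminogen.

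The positions of all 9 genes on GRCm38 were taken from GENCODE M21 by identifier. F3 (ENSMUSG00000028128) lies on chromosome 3 from 121723537 to 121735048 on the plus strand, and Plaur (ENSMUSG00000046223) on chromosome 7 from 24462484 to 24475968 on the plus strand. Thbd (ENSMUSG00000074743) lies on chromosome 2 from 148404466 to 148408188 on the minus strand, and Procr (ENSMUSG00000027611) on chromosome 2 from 155751117 to 155755471 on the plus strand. Plat (ENSMUSG00000031538) lies on chromosome 8 from 22757727 to 22782844 on the plus strand, and Plau (ENSMUSG00000021822) on chromosome 14 from 20836660 to 20843385 on the plus strand. Serpine2 (ENSMUSG00000026249) lies on chromosome 1 from 79794197 to 79861180 on the minus strand, Serpinf1 (ENSMUSG00000000753) on chromosome 11 from 75409769 to 75422701 on the minus strand, and Clec3b (ENSMUSG00000025784) on chromosome 9 from 123150946 to 123157432 on the plus strand. GENCODE lists 0 other genes overlapping any of them, so their counts are not shared with an overlapping gene.

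RefSeq promoter sequences (GRCm38.p6) were found for 5 of the 9 genes: F3, Plaur, Serpine2, Serpinf1 and Procr. The 250 bases before the start of F3 and of Plaur are shown, since these are the gene that starts clotting and the one member that was higher at d3 post-fracture than at d0. They lie at chr3:121723287-121723536 and chr7:24462233-24462482, both on the plus strand, and contain no part of the gene as GENCODE draws it. Capitals mark matches on either strand to the AP-1 core TGANTCA or to the GC box GGGCGG, and matches that adjoin or overlap run together.
F3: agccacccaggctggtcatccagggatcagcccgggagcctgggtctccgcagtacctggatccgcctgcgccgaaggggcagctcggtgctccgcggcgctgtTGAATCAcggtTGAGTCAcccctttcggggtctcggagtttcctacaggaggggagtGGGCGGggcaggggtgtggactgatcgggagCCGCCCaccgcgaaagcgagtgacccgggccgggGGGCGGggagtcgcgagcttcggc
Plaur: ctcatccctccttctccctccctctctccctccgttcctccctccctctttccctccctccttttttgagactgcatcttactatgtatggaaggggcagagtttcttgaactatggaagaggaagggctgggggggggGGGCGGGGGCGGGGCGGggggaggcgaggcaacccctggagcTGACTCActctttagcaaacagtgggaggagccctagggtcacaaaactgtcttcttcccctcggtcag
The F3 stretch holds 2 AP-1 cores, which begin 146 and 135 bases before the start, and 3 GC boxes. The Plaur stretch holds 1 AP-1 core, which begins 69 bases before the start, and 3 GC boxes in 1 run, of which the first only adjoins the next and the last 2 overlap. Over all 32851 promoters of the table, 6.75% held an AP-1 core and 32.7% a GC box in the same 250 bases, so the GC box is common. Procr also holds 1 AP-1 core, whereas 0 were found for Serpine2 and Serpinf1 in their windows. These are matches of letters only, and a motif was present both before a gene that was lower after injury and before a gene that was higher.

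Cells with 350 to 8000 detected genes, under 20% mitochondrial unique molecular identifiers (UMIs) and at least 1000 UMIs were retained, which left 1468 to 11941 cells in a library. Median depth was 3640 UMIs per cell at d0 and 15688 to 34949 in the injured libraries. GFP was detected in 97.3 to 99.2% of cells and Tomato in at most 0.0681%. The 5 FAP/MP markers (fibro-adipogenic or mesenchymal progenitors: Prrx1, Cxcl12, Pdgfra, Ly6a and Cd34) summed to 933 to 2332 CPM (UMIs divided by the total of their library, on one fixed scale), with no marker at 0, whereas the 5 myogenic markers summed to at most 3.72 CPM. The 8 hematopoietic markers summed to 48.9 CPM at d0, 28.2 and 17.7 at d3 and d5 post-fracture, and 112 and 23.1 at d3 and d5 post-polytrauma, with only Itgam at 0, and only at d0. The 6 endothelial markers, a cell type known for Thbd and Procr, summed to 48.9 CPM at d0 and 3.65 to 9.66 after injury, with no marker at 0.

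The conditions of a pair of libraries do not follow their deposited labels. The library deposited as d3 post-polytrauma holds 2001 barcodes and was used as d5 post-fracture. Of the 5 libraries it alone matches the cell number that the study states for d5 post-fracture. The library deposited as d5 post-fracture holds 6915 barcodes and was used as d3 post-polytrauma. Values of the 9 genes under the deposited labels are given beside each comparison that uses either library, because 4 directions of a called difference depend on this choice. The d5 libraries shared 944 barcodes with each other but at most 3 with any d0 or d3 library, whereas the d0 and d3 libraries shared 405 to 525 in each pair. The d5 libraries therefore carry another set of barcodes, and time from d3 to d5 cannot be told apart from that difference. Of the retained d5 post-fracture cells, 869 (59.2%) had a barcode that also occurred at d5 post-polytrauma, where it held fewer UMIs by a median factor of 48.6 (quartiles 46.8 and 50.8). Leaving out the barcodes with at least 10 times more UMIs in another library, 326 cells at d5 post-polytrauma, moved no ratio of the 9 genes by more than 0.03 on the log2 scale. Those 326 cells held 2.29% of the Clec3b UMIs of that library and at most 0.290% of the UMIs of any other member.

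**Figure D1:**
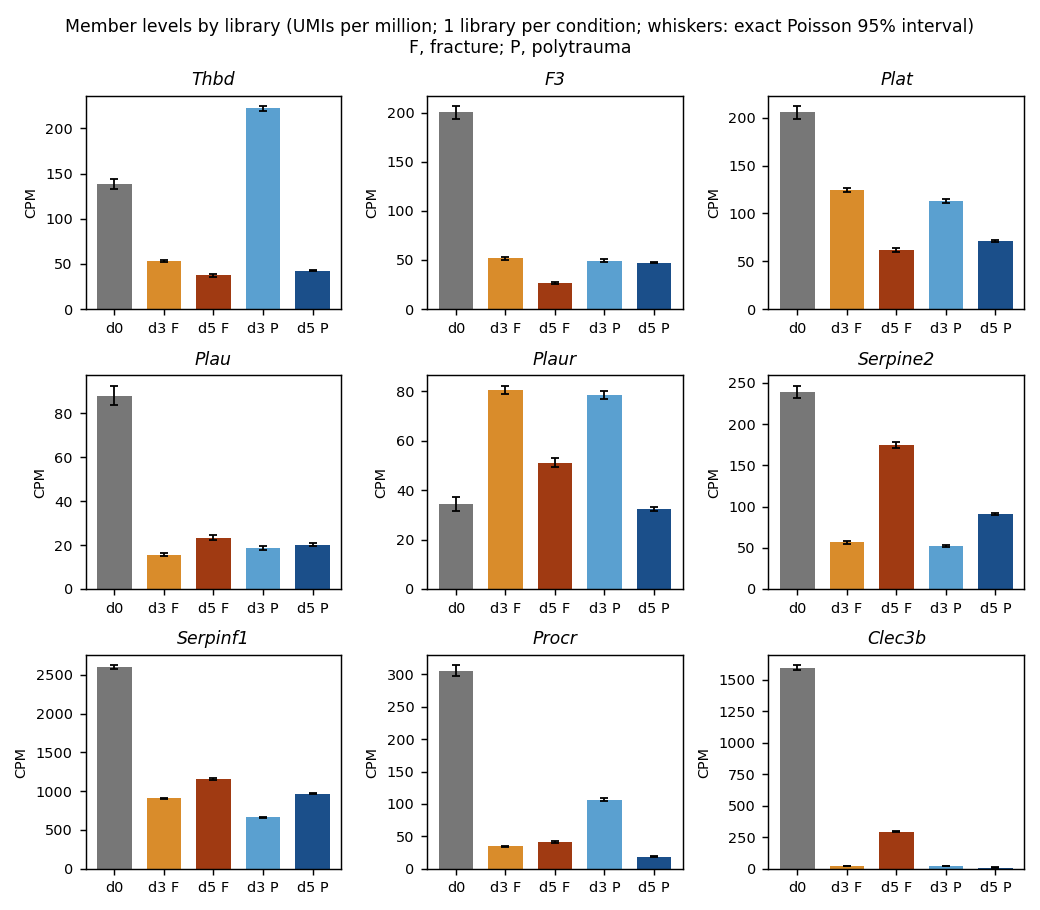
Level of each gene (y axis, CPM, linear from 0) in the 5 libraries (x axis; d0, d3 and d5, F post-fracture, P post-polytrauma). Bars are 1 library each and whiskers are exact Poisson 95% intervals. At d0 the bar is the highest for 7 of the 9 genes, the exceptions being Thbd, highest at d3 post-polytrauma, and Plaur, highest in both d3 libraries.

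All 9 genes were detected in all 5 libraries. F3, which starts the clotting cascade, stood at 200.4 CPM at d0 (95% interval 194 to 207), 51.7 at d3 post-fracture, 26.6 at d5 post-fracture, 49.3 at d3 post-polytrauma and 47.4 at d5 post-polytrauma. The uninjured library was 3.88-fold above the next, and the intervals of d3 post-fracture and both polytrauma libraries overlapped from each neighbour to the next. In summed counts of a library, fewer cells of a type and less RNA per cell cannot be told apart. Levels of different genes are not compared.

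Among the anticoagulant receptors, Thbd stood at 138 CPM at d0 (133 to 144), 53.2 at d3 post-fracture (51.8 to 54.7), 37.3 at d5 post-fracture (35.6 to 39.0), 222 at d3 post-polytrauma (219 to 225) and 42.7 at d5 post-polytrauma (41.8 to 43.6). It was the only member with its highest level in a single injured library, and none of the 5 intervals overlapped its neighbour. Procr stood at 306 CPM at d0 (297 to 314), 34.7 at d3 post-fracture, 41.2 at d5 post-fracture, 107 at d3 post-polytrauma (105 to 109), and 18.8 at d5 post-polytrauma. Both receptors were thus higher at d3 post-polytrauma than in the other 3 injured libraries, but only Thbd exceeded d0.

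The plasminogen activators differed in how far they were below d0. Plat stood at 206 CPM at d0, 125 at d3 post-fracture, 61.4 at d5 post-fracture, 113 at d3 post-polytrauma and 71.5 at d5 post-polytrauma. Plau stood at 88.1 CPM at d0, 15.6 at d3 post-fracture, 23.4 at d5 post-fracture, 18.6 at d3 post-polytrauma and 20.1 at d5 post-polytrauma. Plat was lower at d5 than at d3 after both injuries, whereas all 4 injured libraries lay within 15.6 to 23.4 CPM for Plau, with d0 3.77-fold above the highest of them. Plaur, the urokinase receptor, ran the other way, at 34.2 CPM at d0, 80.6 at d3 post-fracture, 51.1 at d5 post-fracture, 78.5 at d3 post-polytrauma and 32.5 at d5 post-polytrauma. The intervals of the d3 libraries overlapped, as did those of d0 and d5 post-polytrauma.

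Serpine2 stood at 239 CPM at d0 (232 to 247), 56.4 at d3 post-fracture, 174 at d5 post-fracture (171 to 178), 52.4 at d3 post-polytrauma and 91.4 at d5 post-polytrauma. Serpinf1 stood at 2597 CPM at d0, 912 at d3 post-fracture, 1156 at d5 post-fracture, 662 at d3 post-polytrauma and 966 at d5 post-polytrauma. Both serpin genes were lowest at d3 after either injury and lay between d3 and d0 at d5. Clec3b had the widest range, at 1596 CPM at d0 (1577 to 1615), 23.9 at d3 post-fracture (23.0 to 24.9), 294 at d5 post-fracture (290 to 299), 22.9 at d3 post-polytrauma (22.0 to 23.8) and 9.95 at d5 post-polytrauma (9.52 to 10.4). It was near the same level in both d3 libraries and diverged between the d5 libraries.

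The first comparison asked how uninjured cells differed from cells 3 days after fracture. A difference was called when it was at least 2-fold and the gene reached 5 CPM in either library. Plaur was 2.35-fold higher at d3 post-fracture (log2 ratio 1.23, 1.11 to 1.36), 1 of 9 members, where 11.8% of all 9930 genes with that level were called higher. The other called members were lower: 7 of 9, where 30.0% of all genes were called lower. Clec3b was 66.7-fold lower (log2 ratio -6.06, -6.12 to -6.00), Procr 8.81-fold (-3.14) and Plau 5.64-fold (-2.50). Serpine2, F3, Serpinf1 and Thbd had log2 ratios of -2.09, -1.96, -1.51 and -1.38. Plat, at -0.72, was not called. The median over the 9 genes was -1.96, beside -0.37 over all genes. With median-of-ratios scaling, which shifts every log2 ratio of this comparison by 0.58, Thbd (-0.80) and Serpinf1 (-0.93) were no longer called, and the other calls were made with the same direction. Summed dividing-cell markers were 8.37 CPM at d0 and 346 at d3 post-fracture, summed pericyte markers 729 and 70.4, and summed tenocyte markers 1937 and 161, and their part in these differences was not tested.

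From d3 to d5 post-fracture, Clec3b was 12.3-fold higher (log2 ratio 3.62, 3.56 to 3.68) and Serpine2 had a log2 ratio of 1.63. These were 2 of 9 members, where 35.9% of all 9949 genes were called higher, a share above that of the members. Plat was 2.03-fold lower (-1.02, -1.08 to -0.97), 1 of 9, where 4.22% of all genes were called lower. The interval of Plat includes the 2-fold limit, and with each cell thinned to 2000 UMIs it was not called (-0.94). The all-gene median was 0.62, and median-of-ratios scaling, which shifts every log2 ratio here by -0.74, left Serpine2 at 0.89, not called, and put Thbd (-1.25), F3 (-1.69) and Plaur (-1.39) past the limit as lower. Under the deposited labels Clec3b stood at -0.06 and Serpine2 at -0.11, and Thbd (2.06) and Procr (1.62) were the members called higher.

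The comparison of the injuries at d3 set fracture with muscle damage beside fracture alone, with 1 library each. Thbd was 4.18-fold higher at d3 post-polytrauma than at d3 post-fracture (log2 ratio 2.06, 2.02 to 2.11) and Procr 3.08-fold higher (1.62, 1.57 to 1.68), 2 of 9 members, where 1.91% of all 8473 genes were called higher. None of the 9 was called lower, where 1.35% of all genes were. The remaining 7 log2 ratios lay between -0.46 for Serpinf1 and 0.25 for Plau. Under the deposited labels Thbd stood at -0.51 and Procr at 0.25, and Clec3b (3.62) and Serpine2 (1.63) were called higher in their place and Plat (-1.02) lower. The FAP/MP markers summed to 933 CPM at d3 post-fracture and 1591 at d3 post-polytrauma, where cell clusters named from these markers (FAP/MP-like) held 23.9 and 38.9% of cells, and the part of this in the differences was not tested. The hematopoietic markers summed to 28.2 and 112 CPM. Without cells with UMIs of at least 2 hematopoietic or 2 endothelial markers, Thbd stood at 2.07 and Procr at 1.63. With each cell thinned to equal depth, Procr had 1683 UMIs in 6118 cells at d3 post-polytrauma and 647 in 5364 cells at d3 post-fracture. That is a smaller difference than in CPM, though still past 2-fold. Thbd had 3147 and 581 UMIs in the same thinned cells, a larger difference than in CPM. Both libraries draw on the same set of barcodes, with medians of 17963 and 15688 UMIs per cell.

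At d5, Clec3b was 29.6-fold lower post-polytrauma than post-fracture (log2 ratio -4.89, -4.95 to -4.82) and Procr 2.20-fold lower (-1.13, -1.21 to -1.06), 2 of 9 members, where 7.78% of all 9987 genes were called lower. No member was called higher, where 1.43% of all genes were. Serpine2 stood at -0.93, just inside the limit, and at -1.22 without barcodes found in more than 1 library. F3 stood at 0.83 on the other side. With median-of-ratios scaling F3 was called higher (1.03) and Procr was not called (-0.93). Under the deposited labels Clec3b was lower by a smaller margin (-1.20), and Thbd (-2.38), Plaur (-1.27) and Procr (-2.51) were lower as well. Chondrocyte markers summed to 2816 CPM at d5 post-fracture and 299.6 at d5 post-polytrauma, and their part in these differences was not tested.

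From d3 to d5 post-polytrauma, Thbd was 5.21-fold lower (log2 ratio -2.38, -2.42 to -2.35), Procr 5.70-fold (-2.51), Plaur 2.42-fold (-1.27) and Clec3b 2.30-fold (-1.20). These were 4 of 9 members, where 3.56% of all 9521 genes were called lower. No member was called higher, where 26.6% of all genes were. Serpine2 (0.80) and Serpinf1 (0.55) were the members with the highest ratios, beside an all-gene median of 0.48. Under the deposited labels Thbd stood at 0.19 and Plaur at -0.65, and Procr and Clec3b (-4.89) were called lower. With median-of-ratios scaling Plat, at -0.66 in CPM, was called lower too (-1.15). The 5 comparisons share libraries, so their values are not independent of each other.

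**Figure D2:**
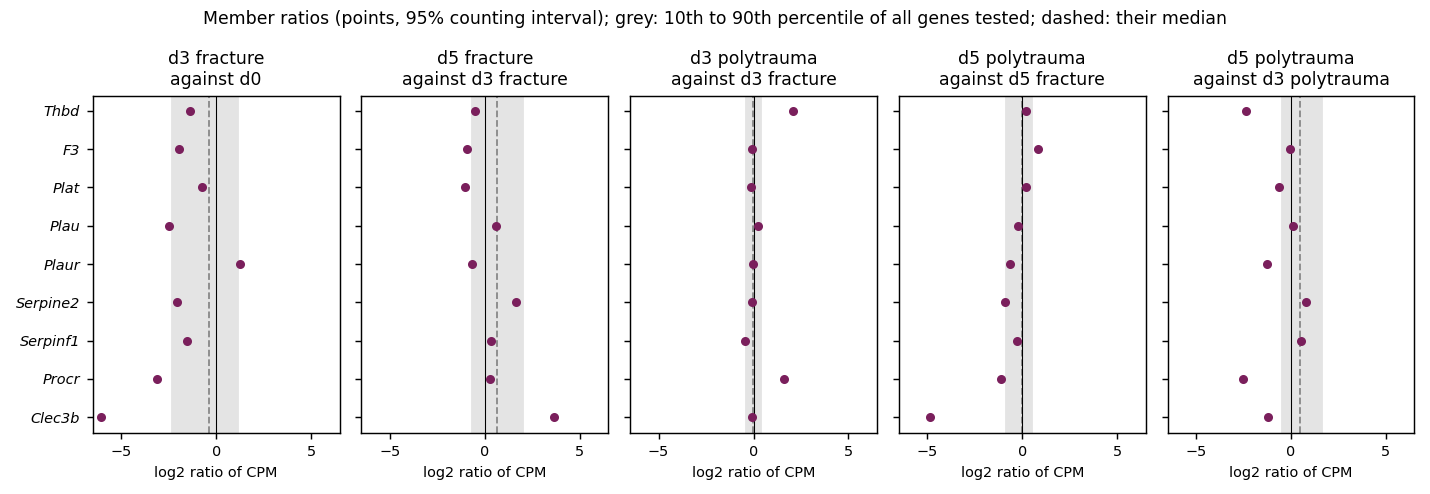
Log2 ratio of CPM (x axis) of each gene (y axis) in the 5 comparisons (panels). Points are the ratios with 95% counting intervals, mostly narrower than the point, the grey band runs from the 10th to the 90th percentile of all genes tested and the dashed line is their median. Thbd (2.06) and Procr (1.62) lie far outside the band at d3 between the injuries, and Clec3b lies outside it in all comparisons but that one.

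To see which cells held the UMIs, each library was clustered on its own with the 9 genes, the wider pathway list and the marker genes left out of the variable genes. Clusters were named from markers, so names were rebuilt and need not match the populations of the study, and many injured cells stayed unnamed. An unnamed cluster can hold FAP/MP markers: the Dpp4-led cluster of d5 post-fracture had 4 of them, beside 5 fibroblast markers. Clusters of 1 name had other leading genes in each library: FAP/MP-like clusters were led by Cyp2f2, C4b, Mme, Mrgprg or Tmem138 at d0, by Saa3 or Rsad2 at d3 post-fracture, by Cxcl14 at d5 post-fracture, by Ifit1 or Ccl8 at d3 post-polytrauma and by Krt19 at d5 post-polytrauma. The last held 1143 cells and 3 of the 5 FAP/MP markers, as did the Mrgprg-led cluster of d0. In its own library, unnamed clusters led by Eln and by Pi16 had 4. The Krt19-led cluster therefore need not stand for the FAP/MP cells of d5 post-polytrauma. Its values are given apart and not set against the others. At d0, FAP/MP-like clusters held 3172 cells (68.5%) and 1 pericyte-like cluster 753 (16.3%). In the injured libraries pericyte-like clusters held 0.871 to 2.52% of cells, and an unnamed cluster of 69 cells at d3 post-fracture, led by Pcp4l1 and Myh11, held a further 1.23%.

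The Procr level was highest in a pericyte-like or Myh11-led cluster in every library. The pericyte-like clusters stood at 920 CPM of Procr at d0 (887 to 954), 516 at d3 post-fracture, 676 at d5 post-fracture, 1119 at d3 post-polytrauma and 423 at d5 post-polytrauma. They held 55.8% of all Procr UMIs at d0 but 4.14 to 21.6% in the injured libraries. The Myh11-led cluster of d3 post-fracture, unnamed but with 5 pericyte markers, is not in these shares and stood at 1267 CPM (1144 to 1400). Procr in FAP/MP-like clusters was 199 CPM at d0, 65.4 at d3 post-fracture, 89.98 at d5 post-fracture and 188 at d3 post-polytrauma, and the Krt19-led cluster of d5 post-polytrauma stood at 16.0. The difference between the d3 libraries was also present between their FAP/MP-like clusters, where 53.4% of the d3 post-polytrauma Procr UMIs lay.

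Thbd was spread over more clusters. In FAP/MP-like clusters it stood at 192 CPM at d0, 90.4 at d3 post-fracture, 76.9 at d5 post-fracture and 334 at d3 post-polytrauma (328 to 341), and the Krt19-led cluster of d5 post-polytrauma stood at 88.2. In tenocyte-like clusters it stood at 16.9 CPM at d0, 10.2 at d3 post-fracture, 199 at d3 post-polytrauma (189 to 209) and 36.8 at d5 post-polytrauma. Those clusters are not alike: the d3 post-fracture one had 5 tenocyte and 0 FAP/MP markers. The d3 post-polytrauma one had 4 and 2, and the d5 post-polytrauma one 5 and 5. An unnamed d0 cluster led by Bglap2 and Wif1 also had 5 tenocyte markers and is not in the d0 value. In pericyte-like clusters the d3 values were 154 and 159 CPM, with overlapping intervals (132 to 180 and 123 to 203). The Myh11-led cluster of d3 post-fracture stood at 22.8 CPM, whereas Rgs5 and Myh11 led 1 pericyte-like cluster together at d3 post-polytrauma. Unnamed clusters stood at 45.7 CPM at d3 post-fracture and 171 at d3 post-polytrauma, where they held 46.8% of the Thbd UMIs and FAP/MP-like clusters 45.8%. The higher Thbd level at d3 post-polytrauma was thus measured in FAP/MP-like, tenocyte-like and unnamed clusters. Among the 9 clusters of that library, Thbd was highest, at 438 CPM, in a FAP/MP-like cluster led by Ccl8 and Car4, and lowest, at 58.8, in an unnamed cluster led by Eno3 and Lars2. In chondrocyte-like clusters at d5 it was low, at 8.02 CPM post-fracture and 4.64 post-polytrauma.

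**Figure D3:**
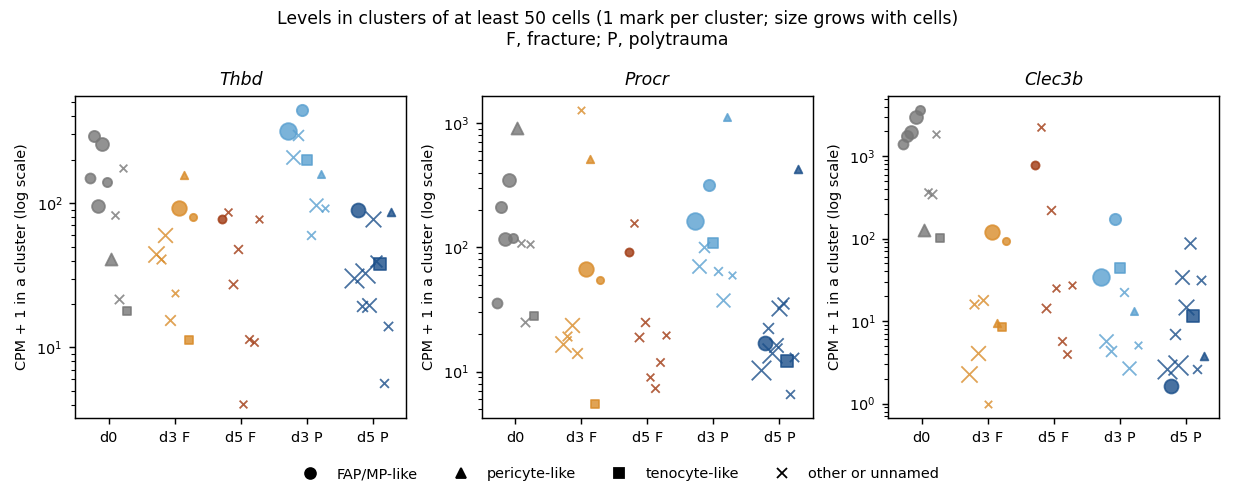
Level of Thbd, Procr and Clec3b (y axis, CPM + 1, log scale) in each cluster of at least 50 cells of the 5 libraries (x axis; F post-fracture, P post-polytrauma). Each mark is a cluster, larger with more cells, and its shape gives the class. Thbd is higher in FAP/MP-like circles at d3 post-polytrauma, up to 438 CPM, than at d3 post-fracture, and pericyte-like triangles lead Procr at d0, at 920 CPM, and in both polytrauma libraries.

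Most Clec3b UMIs lay in FAP/MP-like clusters at d0 and in both d3 libraries, but not in the d5 libraries. FAP/MP-like clusters held 92.6% of Clec3b UMIs at d0, at 2322 CPM, and 86.0% at d3 post-fracture, at 120 CPM. The lower level was thus found in clusters of that name as well. At d3 post-polytrauma they held 75.3%, at 56.6 CPM, and the tenocyte-like cluster stood at 42.7 CPM. At d5 post-fracture 60.5% lay in an unnamed cluster of 133 cells led by Dpp4 and Efhd1, with Pi16 also among its leading genes, at 2285 CPM (2239 to 2332), and 24.5% in a FAP/MP-like cluster at 775 CPM. These 133 cells are 9.06% of that library. Their Clec3b level is near the 2322 CPM of the FAP/MP-like clusters of d0 and above the 1596 CPM of the whole d0 library. Single FAP/MP-like clusters of d0 ranged from 1423 to 3612 CPM. The highest was the Tmem138-led cluster, which also has Dpp4 among its leading genes. At d5 post-polytrauma 47.8% lay in an unnamed cluster led by Pi16, at 88.4 CPM, the highest level of a cluster there. Clusters were not matched between libraries, so this one and the Dpp4-led cluster of d5 post-fracture need not be the same kind of cell. The FAP/MP-like cluster of d5 post-polytrauma, led by Krt19 and Ankrd1, had 0.631 CPM.

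Serpine2 was highest in pericyte-like clusters after injury, at 837 CPM at d3 post-fracture, 1624 at d5 post-fracture, 468 at d3 post-polytrauma and 651 at d5 post-polytrauma, whereas at d0 its highest level, 748 CPM, lay in a FAP/MP-like cluster led by Cyp2f2 and Clu. Within d5 post-fracture the 18 cells of the Rgs5-led pericyte-like cluster stood at 2519 CPM against 345 in the 19 cells led by Pln and Myh11. Most of its UMIs lay elsewhere, since pericyte-like cells held 3.53 to 15.7% of Serpine2 UMIs in the injured libraries. The Myh11-led cluster of d3 post-fracture is not in these shares. Serpinf1 was highest at d0 in the cluster led by Bglap2 and Wif1, unnamed but with 5 tenocyte markers, at 10028 CPM. Next was the tenocyte-like cluster, at 6210 CPM. At d3 post-fracture the tenocyte-like cluster had the highest Serpinf1, at 1578 CPM. With a clustering resolution of 1.0 the highest level lay in a tenocyte-like cluster at d0, at 11991 CPM, and in an unnamed cluster led by Ccnb1ip1 and Samd5 at d3 post-fracture, at 1815 CPM. Pericyte-like clusters had 32.2 to 469 CPM in all libraries.

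F3 was highest at d0 in an unnamed cluster of 106 cells led by Thrsp and Saa1, at 587 CPM, and low in pericyte-like cells, at 14.5 CPM. FAP/MP-like clusters held 84.3% of Plau UMIs at d0, at 117 CPM. The clusters of that name stood at 16.7 CPM at d3 post-fracture, 43.6 at d5 post-fracture and 22.7 at d3 post-polytrauma, and the Krt19-led cluster of d5 post-polytrauma at 22.2. Plat ranged from 96.6 to 362 CPM between clusters at d0 and stood at 4.73 CPM in the Pcp4-led chondrocyte-like cluster of d5 post-fracture and at 44.9 in the dividing one, led by Hist1h1b. Plaur reached 137 CPM (106 to 174) in the hematopoietic-like cluster of d3 post-polytrauma, above the 47.0 to 91.4 CPM of the other 8 clusters there, whereas at d3 post-fracture, where no hematopoietic-like cluster was found, it ranged from 29.3 to 96.6 CPM. With a resolution of 1.0 the highest Plaur level of d3 post-polytrauma, 196 CPM, lay instead in an unnamed cluster of 79 cells led by Fmod and Tnmd.

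**Figure D4:**
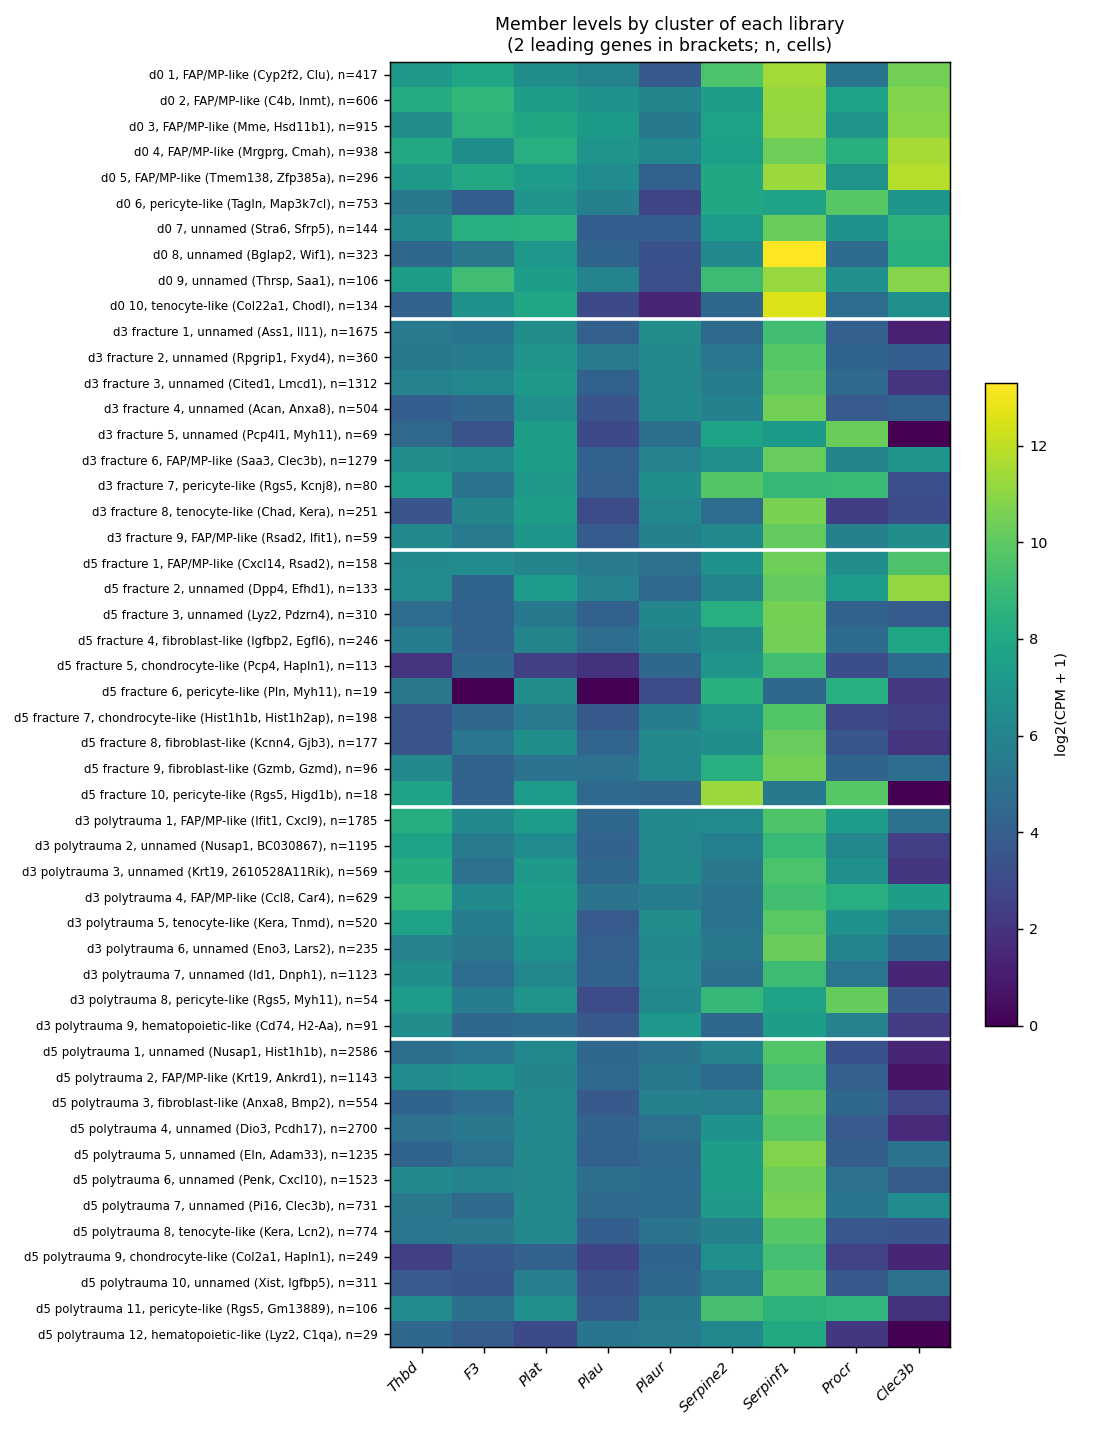
Level of each gene (columns, log2(CPM + 1) by colour) in each cluster (row labels give the library, cluster number, name, 2 leading genes and cells). White lines part the libraries. Procr is bright in pericyte-like rows, Serpinf1 is brightest in the d0 cluster led by Bglap2 at 10028 CPM, and Clec3b is bright in d0 FAP/MP-like rows and in 1 Dpp4-led row of d5 post-fracture.

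Shares of cells with a UMI were compared after 2000 UMIs had been drawn from each cell, which left out 744 cells at d0 and 30 to 424 in the injured libraries. Thbd was detected in 17.8% of thinned cells at d0 (16.6 to 19.0), 8.91% at d3 post-fracture, 6.19% at d5 post-fracture, 30.4% at d3 post-polytrauma (29.3 to 31.6) and 6.73% at d5 post-polytrauma, and without thinning in 26.4, 36.8, 35.7, 70.4 and 27.1%. The thinned shares follow the order of the CPM, and the others do not. The thinned Thbd share in chondrocyte-like cells was 1.30% at d5 post-fracture and 0.641% at d5 post-polytrauma, where their median depths were 40458 and 47258, and 12026 UMIs. It was 12.7% (6.24 to 22.0) of the 79 thinned hematopoietic-like cells of d3 post-polytrauma, with a median of 3803 UMIs. Each is below the share in its library as a whole, but the last interval includes the 8.91% of d3 post-fracture. The part of free RNA, from outside a cell, in these shares was not tested. Of the chondrocyte-like cells of d5 post-polytrauma, 41.4% had a barcode found in another library, against 2.86% of all cells there. Clec3b was detected in 69.6% of thinned cells at d0, 5.07% at d3 post-fracture, 20.6% at d5 post-fracture, 5.59% at d3 post-polytrauma and 1.75% at d5 post-polytrauma. The hematopoietic-like cells of d3 post-polytrauma had 1.27% (0.0320 to 6.85), an interval that includes the share of that whole library. In that library FAP/MP-like cells had 11.03% and tenocyte-like cells 10.0%, both above that interval, and cells of unnamed clusters 0.874%. In the Dpp4-led cluster 95.5% of thinned cells had it.

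Thbd and Procr were found in the same cells more often than in others in both d3 libraries and at d5 post-polytrauma. In thinned cells of d3 post-polytrauma, 45.5% of cells with a Procr UMI also had Thbd (42.4 to 48.7), against 27.4% of cells without (26.2 to 28.7). At d3 post-fracture the shares were 18.9 and 8.24%. At d5 post-fracture, with 90 cells that had Procr, they were 13.3 (7.08 to 22.1) and 5.71% (4.53 to 7.09). Those intervals only just overlapped. At d0 the shares were 19.3 (17.0 to 21.9) and 17.2% (15.8 to 18.6), which overlap within counting error. F3 and Procr were apart at d0, where 13.8% of cells with Procr had F3 (11.8 to 16.1) against 29.8% without (28.1 to 31.5). At d5 post-polytrauma the order was the other way, with 12.7% (9.46 to 16.6) against 7.71% (7.22 to 8.22), and in the other 3 libraries the intervals overlapped. Plau and its receptor Plaur occurred together about as often as the product of their shares, from 0.936 to 1.19 times in the 5 libraries. Depth was the same in all thinned cells, but cells of 1 library share a source and the cell type was not held fixed.

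Likeness over the 47 cluster sums of at least 50 cells was measured by the Pearson r of log2(CPM + 1) among 9396 genes, as a description of points that share libraries, chemistry and depth. Thbd was most like Adora2b (0.85), Zc3h12a (0.80) and Irak3 (0.79). Procr was most like Kitl (0.85), Mustn1 (0.84) and Tspan12 (0.83), and Clec3b was most like Tnxb (0.96), Cd55 (0.95) and Lrrn4cl (0.93). F3 was most like Flt3l (0.80), Cd302 (0.79) and Lrrtm3 (0.79), Plat like Axl (0.77), Arntl (0.74) and Gadd45a (0.74), and Plau like Ifi211 (0.81), Ifi205 (0.81) and Tek (0.80). Plaur was most like Rps7 (0.77), Il1rl1 (0.76) and Kti12 (0.76), Serpine2 like Sema5a (0.81), Pla2r1 (0.76) and Leng9 (0.75), and Serpinf1 like Lpar1 (0.86), Kazald1 (0.84) and Ctsk (0.83). No member was among the 3 genes most like another. Between members r was highest for Plau with Clec3b (0.70) and for Thbd with Procr (0.66), and lowest for Plaur with Serpinf1 (-0.40).

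A list of 45 other genes of coagulation, anticoagulation, fibrinolysis and thrombin sensing was counted in the same way. F9, Serpina5, Serpina10 and Cpb2 had 0 UMIs in all 5 libraries, and Plg, the substrate of the activators, had 1 UMI at d5 post-polytrauma and 0 elsewhere, which allows up to 0.172 CPM at d0 and less in the deeper libraries. At d3 post-fracture against d0, 3 of the 17 genes with at least 5 CPM were higher and 2 lower, where 11.8 and 30.0% of all genes were. Eno1, a glycolytic enzyme that also binds plasminogen at the cell surface, had a log2 ratio of 2.75, with reads that its near-identical copy Eno1b could share, Kng2, a kininogen, 2.39 and F2rl1, a protease-activated receptor, 1.83. Serpinc1, antithrombin (-2.20), and F2r, the main thrombin receptor (-1.14), were lower. Median-of-ratios scaling, with the shift given above for this comparison, would leave F2r not called and would add other list genes as higher.

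From d3 to d5 post-fracture 2 of 16 list genes were higher and 3 lower, where 35.9 and 4.22% of all genes were. Gas6, a vitamin K-dependent ligand related to protein S, had a log2 ratio of 3.30 (92.7 to 912 CPM) and Mrc2, a collagen receptor that associates with Plaur, 1.20. F2rl1 (-1.17), Eno1 (-1.10) and Anxa2 (-1.01), a plasminogen-binding annexin, were lower. At d3, 1 of 17 list genes was higher post-polytrauma and 0 lower, and that gene was Serpinb2 (2.10), an inhibitor of urokinase, at 12.5 against 2.91 CPM, where 1.91% of all genes were called higher and 1.35% lower. At d5, F2rl1 (1.10) was higher post-polytrauma, and Gas6 (-2.10) and Kng2 (-2.04) were lower, of 16, where 1.43 and 7.78% of all genes were called. From d3 to d5 post-polytrauma, of 17, Gas6 (1.67) and Mrc2 (1.13) were higher and Serpinb2 (-1.80) and Eno1 (-1.03) lower, where 26.6 and 3.56% of all genes were. With median-of-ratios scaling Mrc2 would not be called from d3 to d5 after either injury, and other list genes would be called lower. Under the deposited labels the values from d3 to d5 post-fracture and those at d3 between the injuries change places, so that Gas6 (3.30) and Mrc2 (1.20) would be higher at d3 post-polytrauma than at d3 post-fracture. The values at d5 between the injuries and those from d3 to d5 post-polytrauma change places likewise.

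**Figure D5:**
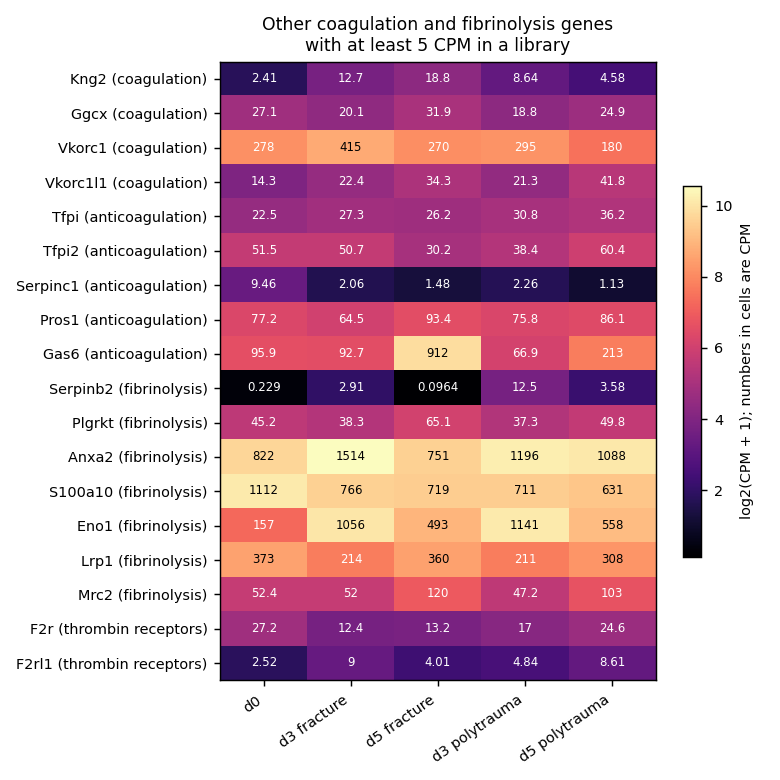
Level of the other coagulation and fibrinolysis genes with at least 5 CPM in a library (rows, with their list) in the 5 libraries (columns), by colour as log2(CPM + 1) with the CPM printed in each cell. Gas6 stands at 912 CPM at d5 post-fracture, against 92.7 CPM at d3 post-fracture.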

How the data were processed

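Libraries were made from GFP+ sorted cells with a 10x Genomics 3' kit that the labels name as version 2. The authors aligned reads to mm10 with Cell Ranger (3.1.0 in the header of the matrices) and deposited raw UMI counts per gene and barcode, without normalization. The submitters' processing notes also name Seurat 3.1.2, whose output was not used here. Of the 31055 gene rows, 30934 were found in GENCODE M21. Rows for the GFP and Tomato transgenes were kept in totals.

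The 9 genes, the wider list and the comparisons were chosen with earlier results of these data known. 1 gene of the wider list is not reported here. Every member is named. Of the wider list, the 3 largest differences past 2-fold in each direction were named in each comparison, and of the likeness values the 3 highest for each member.

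Cells were retained as given in the report, and doublets were not called, so possible doublets were kept and the deepest 10% of cells left out as an alternative. UMIs of the cells kept were added up for each library and scaled to a common total (CPM), with exact Poisson 95% intervals, and ratios have exact binomial intervals conditional on the sum of both counts. Shares have Clopper-Pearson intervals. Intervals cover counting error only. With 1 library per condition no p-value was computed. Depth was 17437190 to 202233564 UMIs in retained cells of a library.

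Clusters were computed in scanpy 1.11.5 with igraph 0.11.9 (2000 variable genes, 20 principal components, 15 neighbours, Leiden resolution 0.5). A name needed 3 markers, each detected in 10% or more of the cluster and above its level in other clusters. It also needed a share of its marker list at least as large as that of every other type. Where markers of another type were among the 10 leading genes, it needed more of its own there. A cluster in which fibroblast markers alone had the largest share stayed unnamed if another type had at least 3 markers. The rule was tightened with the clusters in view. Clusters much shallower than their library with no leading marker stayed unnamed. Other software was Python 3.11.15, numpy 2.4.6, scipy 1.17.1 and pandas 2.3.3. The ratio and thinning steps were tested on simulated data. Alternatives were median-of-ratios scaling, no UMI minimum, equal weight per cell after thinning, barcodes of more than 1 library left out, the deepest cells left out, cells with markers of other types left out, the deposited labels and a resolution of 1.0.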

Additional observations from a re-analysis of the deposited data

Results flagged for a closer look

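In CPM, the change from d3 to d5 had opposite directions after the 2 injuries for Clec3b and Procr. The difference between the injuries was not tested, since each group is 1 library. For Clec3b the log2 ratio of d5 over d3 was 3.62 post-fracture and -1.20 post-polytrauma. For Procr it was 0.25 post-fracture and -2.51 post-polytrauma, and the first of these is under 2-fold and turned to -0.49 with median-of-ratios scaling. Exchanging the d5 post-fracture and d3 post-polytrauma libraries, as their deposited labels would have it, gives -0.06 and -4.89 for Clec3b and 1.62 and -1.13 for Procr.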

How the results depend on the processing

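No paired analysis was possible because each condition has 1 library, and for the same reason no library could be left out of a condition. Of the 45 log2 ratios of the 9 genes, 45 kept their direction and their side of the 2-fold limit without the UMI minimum, without cells with markers of other types, and without barcodes holding at least 10 times more UMIs elsewhere, the last an alternative chosen after seeing the data. Without barcodes of more than 1 library, 44 kept their side of the limit. With each cell thinned to 2000 UMIs 44 did as well, but the largest change of a log2 ratio was 1.2, for Clec3b at d3 post-fracture against d0. Median-of-ratios scaling kept 36: from d3 to d5 post-fracture it gave 1 member higher and 4 lower, at d5 between the injuries 1 higher and 1 lower, and from d3 to d5 post-polytrauma 5 lower, with Plat (-1.15) added. From d3 to d5 post-fracture 2 members were lower without the deepest 10% of cells and 0 with thinned cells. The deposited labels changed most, keeping the direction of 16 of the 36 ratios they touch: Serpine2 (-0.11) and Clec3b (-0.06) from d3 to d5 post-fracture, Thbd (-0.51) at d3 between the injuries and Thbd (0.19) from d3 to d5 post-polytrauma took the opposite sign. The members called lower were then 0 from d3 to d5 post-fracture, 1 at d3 between the injuries, 4 at d5 between the injuries and 2 from d3 to d5 post-polytrauma. With a clustering resolution of 1.0 the name of the cluster with the highest level was kept for 5 of 9 members at d3 post-polytrauma, the others being F3, Plat, Plau and Plaur. Clusters of under 100 cells are limited by their number of cells. Depth limits others, such as an unnamed cluster of 311 cells at d5 post-polytrauma with a median of 1448 UMIs. The spread between mice is unknown for all values.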
